A study of Mus musculus with 4 samples.

Results

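The transcripts described here are those of 57 cell cycle and mitosis genes, listed by name and grouped by role, in mouse embryo fibroblasts (MEFs) with and without stathmin, a microtubule regulatory protein. The roles ran from the G1 cyclins and their kinases through E2F transcription factors, mitotic kinases, kinetochore and spindle checkpoint genes to cytokinesis and chromosome condensation. All 57 genes had at least 1 tested probe among the 15588 named genes measured, and together they held 92 tested probes of the 101 carried by the array. Each of 4 Agilent 2-color arrays compared STMN1-/- with STMN1+/+ MEFs, both of strain C57BL/6. In the STMN1-/- MEFs the gene had been disrupted by a neomycin cassette, and both genotypes came from midgestation embryos of STMN1+/- parents, cultured in serum-containing medium and discarded after a small number of passages. STMN1-/- RNA carried Cy3 on arrays 1 and 2 and Cy5 on arrays 3 and 4. The methods describe no drug treatment and no synchronisation of the cycle. No label ties an array to an embryo, culture or extract, so p-values here reflect the spread among the 4 arrays alone, which may be technical, and genotype cannot be told apart from cell line.

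Progress through the cell cycle depends on cyclins, which switch on their kinases in turn. The D-type cyclins with Cdk4 and Cdk6 act in G1, cyclin E with Cdk2 acts at the start of S phase, and cyclin B with Cdk1 drives mitosis. E2F factors switch on many genes of S phase, while the B-Myb and FoxM1 factors act on genes of G2 and mitosis, which therefore tend to be transcribed in the same cells at the same time. Stathmin binds tubulin dimers and destabilises microtubules, and is itself switched off by phosphorylation when the mitotic spindle forms.

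The promoters of genes of this kind are known for E2F sites, for the cell cycle genes homology region (CHR) and for CCAAT boxes. RefSeq promoter windows of mouse build GRCm38.p6 were matched for 47 of the 57 genes, and the 250 bases before each transcript start were searched on both strands. An E2F site was taken as TTTCCCGC, TTTCGCGC, TTTGCCGC or TTTGGCGC, a CHR as TTTGAA or TTCGAA, and a CCAAT box as CCAAT. The sequences of 5 genes called lower in STMN1-/- MEFs are shown to give one promoter with an E2F site (Cdc25a), one with a CHR (Ube2c), a pair with CCAAT boxes alone (Bub1, Hmmr) and one with no match (Anln). They lie at chr9:109875329-109875578 on the plus strand, chr2:164769679-164769928 on the plus strand, chr2:127831860-127832109 on the minus strand, chr11:40733438-40733687 on the minus strand and chr9:22389207-22389456 on the minus strand. Each is written 5′ to 3′ up to the last base before the start, with every match in capitals.
Cdc25a: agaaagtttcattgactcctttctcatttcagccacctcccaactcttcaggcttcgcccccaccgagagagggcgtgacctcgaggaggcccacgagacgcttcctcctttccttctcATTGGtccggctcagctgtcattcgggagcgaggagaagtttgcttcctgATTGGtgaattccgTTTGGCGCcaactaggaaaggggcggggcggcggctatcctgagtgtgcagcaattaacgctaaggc
Ube2c: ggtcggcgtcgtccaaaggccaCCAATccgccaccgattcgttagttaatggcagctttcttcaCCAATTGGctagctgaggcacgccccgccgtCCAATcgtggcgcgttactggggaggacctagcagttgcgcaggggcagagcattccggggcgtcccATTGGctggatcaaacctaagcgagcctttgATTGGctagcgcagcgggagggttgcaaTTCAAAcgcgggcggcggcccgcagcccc
Bub1: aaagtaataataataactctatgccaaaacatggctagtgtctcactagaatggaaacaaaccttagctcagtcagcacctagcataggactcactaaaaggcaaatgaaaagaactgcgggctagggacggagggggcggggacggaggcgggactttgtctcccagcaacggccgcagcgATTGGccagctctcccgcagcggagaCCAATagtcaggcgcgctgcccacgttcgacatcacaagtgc
Hmmr: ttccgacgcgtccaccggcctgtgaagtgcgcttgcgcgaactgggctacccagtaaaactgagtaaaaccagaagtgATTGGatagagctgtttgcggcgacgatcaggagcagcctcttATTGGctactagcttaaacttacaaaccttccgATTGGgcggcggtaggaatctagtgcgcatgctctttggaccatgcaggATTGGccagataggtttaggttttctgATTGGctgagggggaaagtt
Anln: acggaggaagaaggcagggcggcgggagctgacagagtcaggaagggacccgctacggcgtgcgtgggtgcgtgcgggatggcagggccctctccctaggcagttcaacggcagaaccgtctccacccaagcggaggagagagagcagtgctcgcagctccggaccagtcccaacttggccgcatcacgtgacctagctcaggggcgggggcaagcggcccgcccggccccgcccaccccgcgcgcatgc
In the Cdc25a window the E2F match began 67 bases before the start, and in the Ube2c window the CHR match began 29 bases before it. A CCAAT box stood in 33 of the 47 cell cycle promoters (70.2%), against 37.5% of the 27025 genes with a window. A CHR was found in 16 of 47 (34%) against 19.6%, and an E2F site in 5 of 47 (10.6%) against 2.16%. Among genes called lower, 13 of 17 held a CCAAT box, 3 of 17 a CHR and 1 of 17 an E2F site. Among those not called, the counts were 20, 13 and 4 of 30. A match is a description of the letters, not evidence of binding, and the difference between called and uncalled genes was not tested.

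The cell cycle and mitosis genes were mostly lower in STMN1-/- MEFs, by small amounts. Of 57 genes, 21 were called lower and 0 were called higher in limma's moderated test (two-sided, Benjamini-Hochberg adjusted p under 0.05 over all 27648 tested probes). At an unadjusted p under 0.05, 29 genes were lower and 1, E2f2, higher. These were 30 of 57, against 6248 of all 15588 genes in either direction. The methods' own test called 17 genes lower (29.8%, against 8.01% of all genes) and 0 higher. By adjusted p in limma's test, 12.3% of all 15588 genes were called lower and 13.2% higher. The median log2 ratio of STMN1-/- over STMN1+/+ was -0.23 over the cell cycle genes and 0.00 over all genes. It was -0.22, -0.16, -0.21 and -0.23 on arrays 1 to 4, so no array stood apart in direction or size. The mean ratio was below 0 for 49 of the 57 genes, and below -0.25 for 24 of them (42.1%) against 17.5% of all genes. The lowest was Ccne2 at -0.76 and the highest E2f2 at 0.23. In 36 genes (63.2%) every array that measured them gave a lower signal in STMN1-/- RNA, which was so for 25.5% of all genes. Of the 92 probes for these genes, 31 were called lower and 0 higher, against 3086 lower and 3098 higher of all 27648 tested probes. The number of calls rested on all 4 arrays. Without array 1, 2, 3 and 4 in turn, 8, 8, 7 and 6 genes were called lower and 0 higher. These were 14%, 14%, 12.3% and 10.5% of the 57, against 6.41%, 5.63%, 6.11% and 5.9% of all genes. Ccnd1, Ccne2, Bub1, Anln and Ect2, 5 of the 21, were called whichever array was left out, and Ccnd1 and Bub1 under all 16 alternatives tried. Another background correction (normexp with loess) gave 13 genes called lower, and keeping dim probes in the test gave 11, against 5.47% and 5.69% of all genes. In RNA from whole cultures, fewer cells in S phase or mitosis and less transcript per such cell cannot be told apart.

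**Figure D1:**
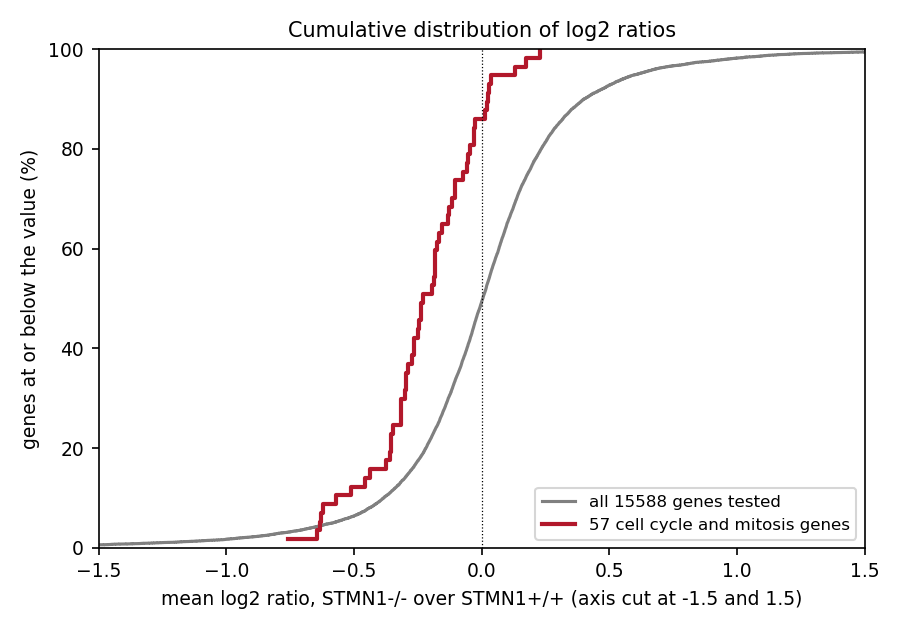
Cumulative share of genes (percent, vertical axis) at or below a mean log2 ratio of STMN1-/- over STMN1+/+ (horizontal axis) for the 57 cell cycle and mitosis genes and for all 15588 genes tested. The cell cycle curve lies to the left of the curve of all genes over most of its length, with 49 genes below 0 and none below -0.76.

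**Figure D2:**
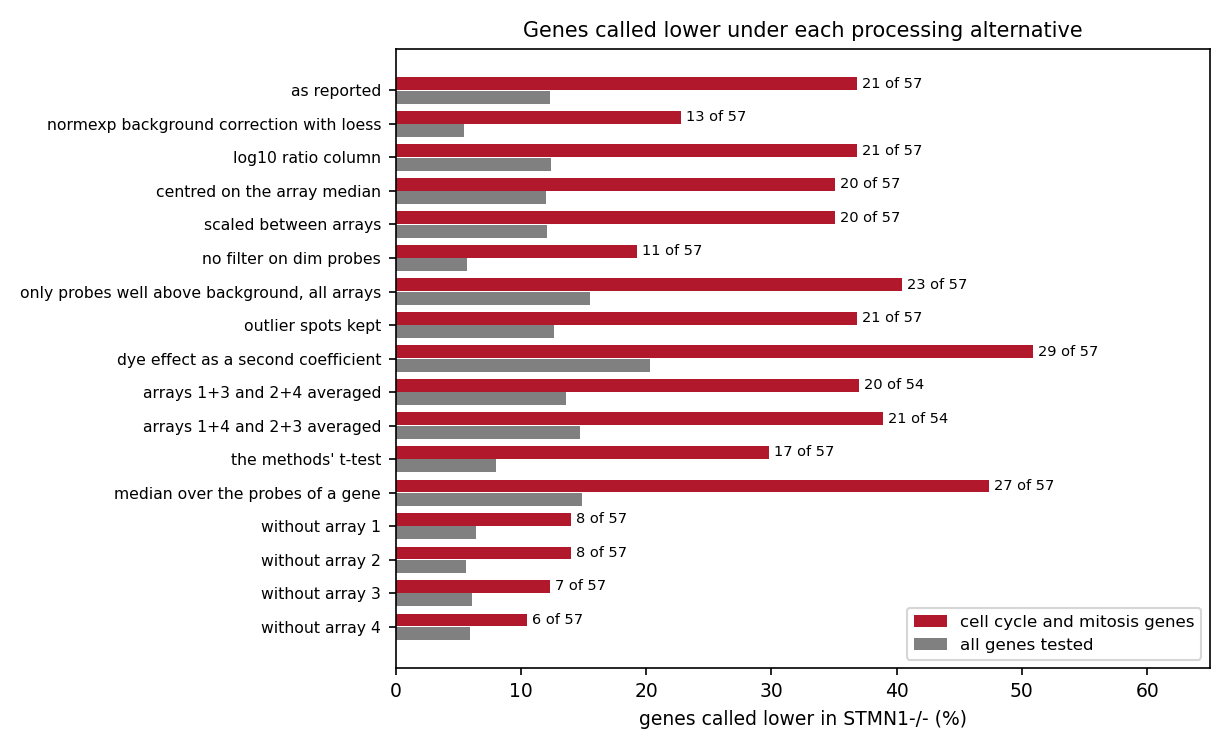
Percent of genes called lower in STMN1-/- MEFs as reported and under each processing alternative, for the cell cycle and mitosis genes (red, with counts) and for all genes tested (grey). The red bar is longer than the grey bar under each alternative, and it is shortest when 1 array is left out, at 6 to 8 of 57 genes.

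Beside these values, the fibroblast marker genes were not level between the genotypes, and markers of other cell types moved too. Of 10 fibroblast markers, 8 were called higher and 1, Vim, lower, with a median log2 ratio of 0.90 and a summed signal of 4178600 to 6587630 in STMN1-/- RNA and 3823750 to 4453390 in STMN1+/+ RNA. All 7 tested epithelial markers of 8 listed were called lower, with a median of -0.98 and a summed signal of 56710 to 67213 against 86622 to 98057. Cdh1, which encodes E-cadherin, was well above background in STMN1+/+ RNA on 4 arrays and in STMN1-/- RNA on 0, and Epcam, with the endothelial markers Pecam1, Cdh5 and Tie1, the glial marker Gfap and the myeloid marker Itgam, was well above background in either channel on 0 arrays. Of 6 tested neural and glial markers of 7 listed, 5 were called lower and Tubb3 higher, with summed signals of 25263 to 29002 and 24960 to 27775. Among macrophage markers 2 of 5 tested were higher and 1 lower, with summed signals of 6078 to 6906 and 5723 to 6586. Among muscle markers 2 of 5 were higher, with summed signals of 56633 to 78779 and 51302 to 68568. Of endothelial markers 2 of 5 were tested, with summed signals of 1148 to 1370 and 1673 to 2015, and Kdr was lower. The part of these shifts in the cell cycle values was not tested.

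The genotype labels were first checked by Stmn1 itself. Probe A_52_P319161 gave log2 ratios of -2.24, -2.21, -2.14 and -2.03 on arrays 1 to 4 (mean -2.16, SE 0.06, adjusted p = 0.000602 by limma). Probe A_51_P495641 gave -0.52, -0.46, -0.35 and -0.24 (mean -0.39, SE 0.07, adjusted p = 0.0181). Both probes were lower in STMN1-/- RNA on every array, and the size differed between them. The call of the second was lost without array 1, 2 or 3, with adjusted p-values of 0.0655 to 0.0776. The study's account is that its Stmn1 probe matches a second place in the genome. It also reports, by qRT-PCR and western blots, that STMN1-/- MEFs lack the mRNA and the protein. The position of either probe relative to the disrupted part is not given in the sources used here.

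Of the 9 G1/S cyclins and kinases, 4 were called lower. Cyclin D1, the growth factor-induced partner of Cdk4 and Cdk6, fell, as did cyclins E1 and E2, the partners of Cdk2, and the phosphatase Cdc25a, which activates Cdk2. Ccnd1 gave log2 ratios of -0.63, -0.61, -0.64 and -0.60, a mean of -0.62 (SE 0.05, 1.54-fold lower, adjusted p = 0.0025 by limma, n = 4). Its processed signals were 28172, 30636, 30023 and 31794 in STMN1-/- RNA and 43532, 46890, 46672 and 48212 in STMN1+/+ RNA. The signals of the genotypes did not overlap, and the 4 ratios lay closer together than those of any other gene in the role. Ccne2 gave -0.63, -0.76, -0.79 and -0.84, a mean of -0.76 (SE 0.06, 1.69-fold lower, adjusted p = 0.00236 by limma). With normexp background correction the mean was -0.35 and the call was lost (adjusted p = 0.0569). Ccne1 gave -0.38, -0.45, -0.25 and -0.34 (mean -0.36, SE 0.06, adjusted p = 0.0162 by limma). Cdc25a gave -0.32, -0.39, -0.43 and -0.35 (mean -0.38, SE 0.05, adjusted p = 0.0109 by limma), and -0.20 with normexp (adjusted p = 0.0816). For each of these genes every array was on the lower side.

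The means of the other D-type cyclins lay on the opposite side of 0 from cyclin D1. Ccnd2 gave log2 ratios of 0.24 and 0.27 on arrays 1 and 2 and of -0.04 and 0.07 on arrays 3 and 4 (mean 0.13, SE 0.08, adjusted p = 0.273 by limma). Ccnd3 was measured on arrays 1 to 3, at 0.27, 0.28 and -0.03 (mean 0.17, SE 0.10, adjusted p = 0.282 by limma). Both were higher with STMN1-/- RNA in Cy3 and near 0 with it in Cy5, and neither was called. The 95% intervals of the mean were -0.06 to 0.33 for Ccnd2 and -0.09 to 0.44 for Ccnd3, which do not meet that of Ccnd1, -0.75 to -0.49.

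Among the G1 kinases, the level of Cdk6 depended on the probe. Its brightest probe, A_51_P489779, gave -0.55 on array 1 and -0.19 and -0.16 on arrays 3 and 4 (mean -0.30, SE 0.11) and was not called, with an adjusted p of 0.136. The other probes, A_51_P388310 at chr5:3527675-3527734 of build mm7 and A_52_P417489, were both called lower. The first gave -0.56, -0.51, -0.60 and -0.70 (mean -0.59, SE 0.06, adjusted p = 0.00431 by limma) and the second -0.81, -0.57, -0.63 and -0.57 (mean -0.64, SE 0.07, adjusted p = 0.00473 by limma). The array annotates these probes to the RefSeq transcript of Cdk6 and the brightest to another cDNA. Cdk4, the other kinase of the D-type cyclins, had a mean of -0.03 (SE 0.09) and Cdk2, the kinase of cyclin E, a mean of 0.01 (SE 0.09). Their signs split by dye, Cdk4 at 0.14 and -0.20 and Cdk2 at -0.13 and 0.16 for STMN1-/- RNA in Cy3 and in Cy5.

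Cyclin E and Cdc25a are known targets of E2F factors. The 4 transcription factors among the 57 genes, E2f1, E2f2, E2f3 and Mybl2, gave 0 calls. E2f7, which is on another list and was called lower, is given below. A link between factors and targets was not tested. The median log2 ratio of the 4 transcription factors was 0.02. Its sign was not stable: it was -0.017 with normexp, -0.004 with outlier spots kept, -0.077 with either pairing of the arrays, -0.027 by the median over probes, and -0.014 and -0.017 without array 3 and array 4. By brightest probe, E2f2 alone had an unadjusted p under 0.05 in limma. E2f1 gave -0.19 and -0.20 on arrays 1 and 2 and 0.22 and 0.25 on arrays 3 and 4 (mean 0.02, SE 0.11, adjusted p = 0.914 by limma), a split that followed the dye exactly. The brightest probe of E2f3 was measured on arrays 2 to 4, at -0.01, 0.05 and 0.04 (mean 0.03, SE 0.07). Other E2f3 probes, A_52_P508167 with a mean of -0.20 (SE 0.06, adjusted p = 0.0596 by limma) and A_51_P487718 with a mean of -0.17 (SE 0.07, adjusted p = 0.144 by limma), were below 0 on every array and not called. E2f2 gave 0.25, 0.05, 0.40 and 0.20 (mean 0.23, SE 0.08, adjusted p = 0.0915 by limma). It was the single gene of the 57 with a higher signal in STMN1-/- RNA on every array, and it was not called, except when arrays 1 and 4 and arrays 2 and 3 were averaged as pairs (adjusted p = 0.0473). Mybl2, which encodes B-Myb, gave -0.05, -0.13, -0.35 and -0.17 (mean -0.17, SE 0.07, adjusted p = 0.142 by limma).

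**Figure D3:**
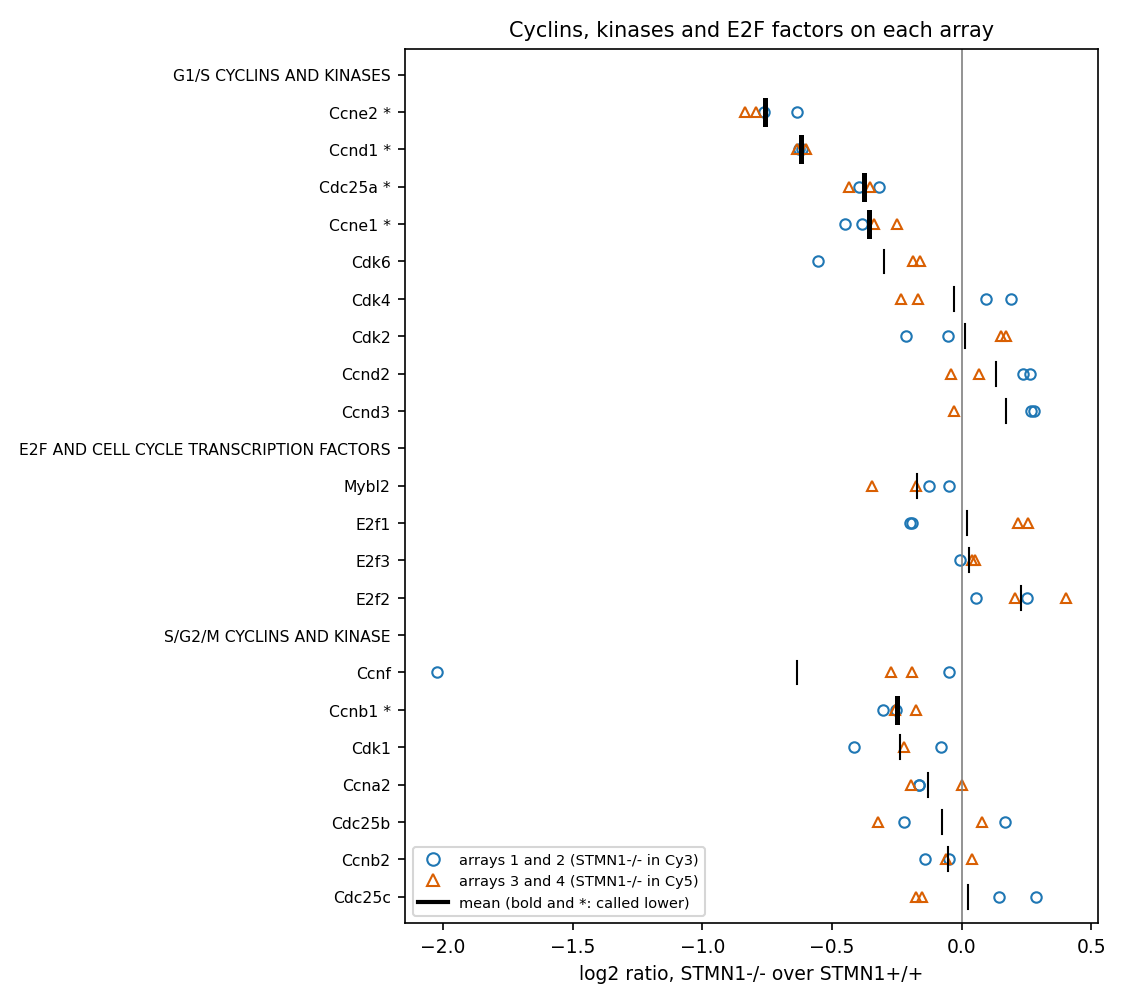
Log2 ratio of STMN1-/- over STMN1+/+ (horizontal axis) on each array for the cyclins, kinases and transcription factors of G1, S and G2, with arrays 1 and 2 as circles, arrays 3 and 4 as triangles and the mean as a bar. Ccnd1 and Ccne2 lie well below 0 on every array, E2f1, Cdk2 and Cdk4 split by dye around 0, and Ccnf has 1 array at -2.02.

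Of the S, G2 and M phase cyclins and their regulators, Ccnb1 alone was called. Cyclin B1, the mitotic partner of Cdk1, gave log2 ratios of -0.30, -0.25, -0.26 and -0.18 (mean -0.25, SE 0.06, 1.19-fold lower, adjusted p = 0.0337 by limma). Its call was lost by the median over its probes, and also whichever array was left out. Ccnb2, which encodes the related cyclin B2, had a mean of -0.05 (SE 0.06, 95% interval -0.20 to 0.10), with array 3 above 0. Ccna2, the cyclin of S phase and G2, had a mean of -0.13 (SE 0.06), and Cdk1, named Cdc2a on the array, had a mean of -0.24 (SE 0.09, adjusted p = 0.158 by limma) over 3 arrays. Ccnf, which encodes a substrate receptor of a ubiquitin ligase, had the lowest mean of the role, -0.63, but this rested on array 1 at -2.02. The other arrays gave -0.05, -0.19 and -0.27 (SE of the mean 0.36, adjusted p = 0.269 by limma), and without array 1 the mean was -0.17. The phosphatases of Cdk1 were near 0, Cdc25b at -0.07 (SE 0.10) and Cdc25c at 0.03 (SE 0.10), with arrays on both sides.

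The mitotic kinases and the chromosomal passenger complex were lower throughout, with 10 of 10 genes below 0 on every array that measured them and 5 called. Birc5, or survivin, a subunit of the passenger complex, gave -0.41, -0.50, -0.33 and -0.50 (mean -0.44, SE 0.06, 1.35-fold lower, adjusted p = 0.00964 by limma). Cdca8, or borealin, gave -0.29, -0.31, -0.17 and -0.19 (mean -0.24, SE 0.06, adjusted p = 0.0407 by limma). The other members of that complex were not called, Aurkb, its kinase, at a mean of -0.32 (SE 0.09, adjusted p = 0.0625) and Incenp, its scaffold, at -0.18 (SE 0.06, adjusted p = 0.0741). All 4 subunits thus lay on the lower side, with array 2 of Aurkb, at -0.60, apart from its other arrays at -0.27, -0.23 and -0.17.

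Nek2, a centrosomal kinase, gave -0.36, -0.30, -0.39 and -0.37 (mean -0.36, SE 0.05, adjusted p = 0.012 by limma). Aurka, the Aurora kinase of the spindle poles, gave -0.22, -0.16, -0.36 and -0.53 (mean -0.32, SE 0.08, adjusted p = 0.0491 by limma), at the edge of the threshold. Pbk, a kinase of proliferating cells, gave -0.22, -0.20, -0.31 and -0.36 (mean -0.27, SE 0.06, adjusted p = 0.0308 by limma). Nek2 was even across dyes, while Aurka and Pbk were lower with STMN1-/- RNA in Cy5. Plk1, which acts at several steps of mitosis, had a mean of -0.13 (SE 0.06, adjusted p = 0.171), Plk4, the kinase of centriole duplication, -0.18 (SE 0.06, adjusted p = 0.0754) and Melk -0.05 (SE 0.06, adjusted p = 0.598), and none of these was called.

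At the kinetochore, where chromosomes attach to spindle microtubules, all 5 genes had means below 0 and 2 were called. Cenpa, the histone H3 variant of centromeres, gave -0.41, -0.36, -0.19 and -0.30 (mean -0.32, SE 0.06, adjusted p = 0.0247 by limma). Spc25, a subunit of the microtubule-binding Ndc80 complex, gave -0.12, -0.33, -0.44 and -0.31 (mean -0.30, SE 0.07, adjusted p = 0.0429 by limma). The other measured subunits of that complex, Ndc80 at -0.25 (SE 0.09, 3 arrays) and Nuf2 at -0.19 (SE 0.05), had adjusted p-values of 0.138 and 0.0666. Cenpf, a large centromere protein of G2 and mitosis, gave -0.54, -0.42, -0.18 and -0.04 (mean -0.30, SE 0.10, adjusted p = 0.0993 by limma), lower in Cy3 than in Cy5.

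The spindle checkpoint genes, whose products hold back anaphase until chromosomes are attached, divided into 3 called lower and 2 that were not. Bub1, a checkpoint kinase, gave -0.50, -0.49, -0.35 and -0.48 (mean -0.46, SE 0.06, 1.37-fold lower, adjusted p = 0.00763 by limma). Its signals were 5579, 5742, 5266 and 4577 in STMN1-/- RNA and 7911, 8082, 6718 and 6404 in STMN1+/+ RNA, with no overlap. Mad2l1, part of the mitotic checkpoint complex, was measured on arrays 2 to 4 at -0.31, -0.58 and -0.64 (mean -0.51, SE 0.10, adjusted p = 0.0331 by limma). Ttk, or Mps1, the kinase at the head of the checkpoint, gave -0.41, -0.18, -0.22 and -0.24 (mean -0.26, SE 0.06, adjusted p = 0.0435 by limma). With normexp its mean was -0.09 and the call was lost (adjusted p = 0.273).

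Bub1b and Bub3, partners of Mad2 in the mitotic checkpoint complex, gave values on both sides of 0 by their brightest probes. Bub1b, or BubR1, gave 0.28, -0.01, -0.19 and -0.18 (mean -0.03, SE 0.10, 95% interval -0.28 to 0.22), with array 1 alone above 0. The brightest probe of Bub3 gave -0.05, 0.04, -0.21 and -0.24 (mean -0.12, SE 0.07, adjusted p = 0.311 by limma). A further Bub3 probe, A_52_P1052476 at chr7:127926908-127926967 of build mm7, gave -0.20, -0.35, -0.26 and -0.26 and was called lower (mean -0.27, SE 0.06, adjusted p = 0.0294 by limma), while another, A_52_P110040, at a mean of -0.12, was not.

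The anaphase-promoting complex (APC/C) is the ubiquitin ligase that the checkpoint restrains. Its conjugating enzyme Ube2c fell, at -0.36, -0.27, -0.41 and -0.35 (mean -0.35, SE 0.06, 1.27-fold lower, adjusted p = 0.0145 by limma), even across arrays. The activators of the complex were not called, Cdc20, which acts in mitosis, at a mean of -0.19 (SE 0.07, adjusted p = 0.109) and Fzr1, which acts in late mitosis and G1, at -0.03 (SE 0.06, adjusted p = 0.776). Cdc20 was lower on every array, at -0.28, -0.31, -0.12 and -0.07. Pttg1, which encodes securin, the inhibitor of separase, had a mean of 0.04 (SE 0.06) and Espl1, which encodes separase, -0.11 (SE 0.09), each with arrays on both sides of 0.

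The spindle proteins Hmmr and Tpx2 were both called lower. Both belong to the microtubule regulators that the study listed from these same arrays, so their direction is not independent evidence. Hmmr, a hyaluronan receptor that also binds the spindle, gave -0.49, -0.37, -0.67 and -0.99 (mean -0.63, SE 0.12, 1.55-fold lower, adjusted p = 0.02 by limma), and with normexp its mean was -0.39 and it was not called (adjusted p = 0.106). Tpx2, the spindle assembly factor that activates Aurora A, gave -0.51, -0.50, -0.19 and -0.23 (mean -0.36, SE 0.08, adjusted p = 0.0376 by limma). The dyes ran opposite ways for this pair, with Hmmr lower in Cy5 and Tpx2 lower in Cy3, and no array was above 0 for either gene.

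Cytokinesis genes had a median log2 ratio of -0.42, with 4 of 4 lower on every array and 3 called. Ect2, the exchange factor that activates RhoA at the cleavage site, gave -0.77, -0.82, -0.37 and -0.62 (mean -0.64, SE 0.09, 1.56-fold lower, adjusted p = 0.0105 by limma). Its signals were 12545, 12237, 13544 and 13662 in STMN1-/- RNA and 21388, 21595, 17527 and 20977 in STMN1+/+ RNA, so the genotypes did not overlap and array 3 showed the smallest gap. Anln, or anillin, the scaffold of the contractile ring, gave -0.48, -0.39, -0.66 and -0.74 (mean -0.57, SE 0.08, 1.48-fold lower, adjusted p = 0.00989 by limma). With normexp its mean was -0.49 and the call was lost (adjusted p = 0.0735 by limma). Prc1, which bundles the microtubules of the central spindle, gave -0.25, -0.20, -0.27 and -0.34 (mean -0.27, SE 0.06, adjusted p = 0.0292 by limma). Racgap1, a subunit of centralspindlin, gave -0.14, -0.12, -0.13 and -0.33 (mean -0.18, SE 0.06, adjusted p = 0.107 by limma), with array 4 apart from the others.

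Chromosome structure genes had means of -0.29 to -0.06, with 0 calls in limma and 0 unadjusted p-values under 0.05 by their brightest probes. Smc2, a core subunit of condensin, had a mean of -0.23 (SE 0.11, adjusted p = 0.192 by limma) by its brightest probe, with array 1 at 0.13 and the others at -0.32, -0.29 and -0.43. Among its other probes, A_51_P265660 at chr4:52501022-52501081 of build mm7 was called lower at -0.42, -0.17, -0.61 and -0.78 (mean -0.49, SE 0.11, adjusted p = 0.036 by limma). A_52_P243388 was called lower too (mean -0.70, SE 0.17, adjusted p = 0.0403), on a signal well above background in STMN1-/- RNA on 2 of 4 arrays. Ncaph, a subunit of condensin I, had a mean of -0.29 (SE 0.20) that rested on array 1 at -0.99, and without array 1 the mean was -0.05. Ncapd2 of the same complex had a mean of -0.11 (SE 0.09), Smc4, measured on arrays 3 and 4, -0.06 (SE 0.10) and Top2a, the topoisomerase that disentangles sister chromatids, -0.15 (SE 0.08).

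Mki67, which encodes Ki-67, the protein used to count cycling cells, gave -0.22, -0.16, -0.17 and -0.13 (mean -0.17, SE 0.05, 1.12-fold lower, adjusted p = 0.0823 by limma). Its other probe gave the same mean of -0.17 (SE 0.05, adjusted p = 0.0765 by limma). The gene was lower on every array by both probes and was not called, with a 95% interval of -0.30 to -0.03.

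**Figure D4:**
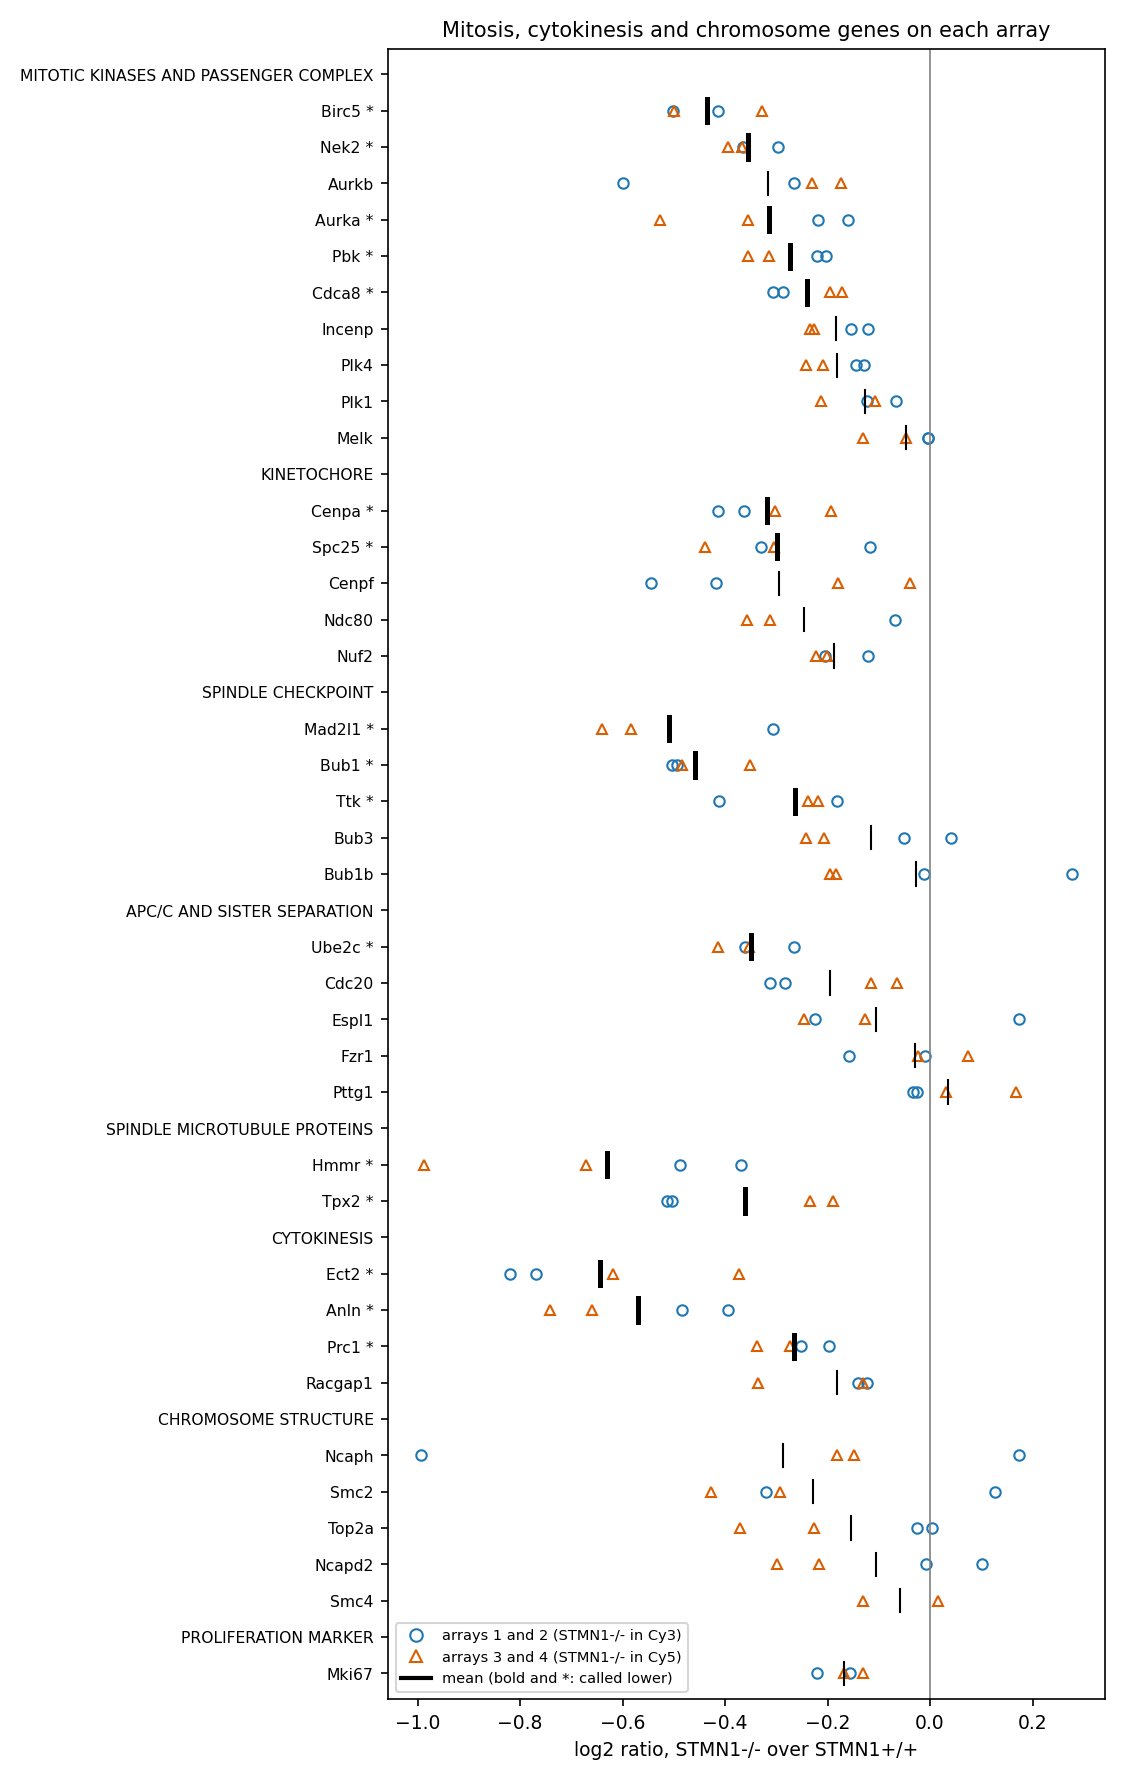
Log2 ratio of STMN1-/- over STMN1+/+ (horizontal axis) on each array for genes of mitosis, cytokinesis and chromosome structure, with arrays 1 and 2 as circles, arrays 3 and 4 as triangles and the mean as a bar, bold where called lower. Most points lie left of 0, with the lowest means for Ect2, Hmmr and Anln, while Bub1b, Pttg1 and Fzr1 straddle it. The farthest single point is Ncaph on array 1, at -0.99.

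Set side by side, the roles ranged from spindle microtubule proteins at a median log2 ratio of -0.49 (2 genes) and cytokinesis at -0.42 (4 genes) to E2F and related factors at 0.02 (4 genes). G1/S cyclins and kinases stood at -0.30 (4 of 9 called lower), kinetochore genes at -0.30 (2 of 5), the spindle checkpoint at -0.26 (3 of 5) and mitotic kinases at -0.26 (5 of 10). Chromosome structure stood at -0.15 (0 of 5), the S, G2 and M phase cyclins and their kinase at -0.13 (1 of 7) and the APC/C genes at -0.11 (1 of 5). Among all 15588 genes 12.3% were called lower, and counts from so few genes do not rank the roles. On single arrays the cytokinesis median was -0.37, -0.30, -0.32 and -0.48, and that of the E2F group was -0.05, -0.07, 0.13 and 0.12. The cytokinesis median was thus below that of the E2F group on every array. The order of the other roles was not fixed, since the G1/S median was -0.17 without array 1, the checkpoint median -0.11 with normexp and the APC/C median -0.16 to -0.059 with 1 array out. Differences between roles were not tested.

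Dye orientation, the only batch the labels give, left the direction in place. The median log2 ratio of the 57 genes was -0.19 with STMN1-/- RNA in Cy3 and -0.22 with it in Cy5. Of these genes, 44 had means below 0 in both orientations and 2 above 0 in both. Among all 15588 genes, 5079 were below 0 in both and 5224 above 0 in both. All 21 genes called lower had means below 0 in each orientation. The calls were made on these same arrays and favour genes with even ratios, so this is not a separate check on dye. Dye turned the sign of genes near 0 such as E2f1, Cdk4 and Cdc25c, the last at 0.22 in Cy3 and -0.16 in Cy5. The split was also wide for Ccnf, at -1.04 in Cy3 and -0.23 in Cy5, and for Hmmr, at -0.43 and -0.83, and was small for Ccnd1, at -0.62 in both. Fitting the dye effect as a second coefficient gave 29 genes called lower (50.9%), against 20.3% of all genes. Without that coefficient the shares were 36.8% and 12.3%, so calls rose among all genes too.

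Other genes of the cell cycle, from lists of 116 genes, gave 24 (21.4%) called lower and 3 (2.68%) called higher of 112 tested, against 12.3% lower and 13.2% higher of all genes, and a median log2 ratio of -0.15. Without array 1, 2, 3 and 4 those called lower numbered 7, 7, 5 and 3 (6.25%, 6.25%, 4.46% and 2.68%), against 6.41%, 5.63%, 6.11% and 5.9% of all genes. With 1 array out the share was thus near or below that of all genes. The genes called higher were all CDK inhibitors, which hold G1 kinases in check. Cdkn2a, which encodes p16 and p19Arf, gave 0.67, 0.63, 0.66 and 0.63 (mean 0.65, SE 0.05, 1.57-fold higher, adjusted p = 0.00231 by limma). Cdkn2b, which encodes p15, gave 0.61, 0.54 and 0.64 on arrays 1 to 3 (mean 0.60, SE 0.07, adjusted p = 0.0106 by limma). Cdkn1c, which encodes p57, gave 0.48, 0.56, 0.53 and 0.75 (mean 0.58, SE 0.07, adjusted p = 0.00652 by limma). No array was below 0 for any of these genes. The remaining 7 of the 10 inhibitors and pocket proteins were not called, among them Cdkn1a, which encodes p21, at -0.06 (SE 0.09), Cdkn1b, which encodes p27, at -0.04 (SE 0.06) and Rb1 at -0.12 (SE 0.06).

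The counts of the single lists stand beside the 12.3% of all genes called lower. Among the other E2F, DREAM and Foxm1 factors, 3 of 13 were called lower. E2f7, a repressing E2F, had a mean of -0.54 (SE 0.11, adjusted p = 0.0358 by limma) over 3 arrays, Lin9, a subunit of the DREAM and MuvB complexes, -0.43 (SE 0.08, adjusted p = 0.0233 by limma) and Foxm1 -0.31 (SE 0.06, adjusted p = 0.0247 by limma). Of 14 other cyclin and CDK regulators, 4 were called lower. These were Ccng1, at -0.56 (SE 0.11), the APC/C inhibitor Fbxo5, at -0.45 (SE 0.07), Cks1b, a CDK-binding protein, at -0.36 (SE 0.05) and Skp2, the ubiquitin ligase subunit that targets p27, at -0.32 (SE 0.07), with adjusted p-values of 0.0109 to 0.0364.

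Other cytokinesis and spindle genes had 7 of 17 called lower, with a median of -0.26. The largest were Ccdc99, which acts in kinetochore recruitment of dynein, at -0.62 (SE 0.09), Bora, an activator of Aurora A, at -0.54 (SE 0.09), Troap at -0.52 (SE 0.06) and Cep55, a midbody protein, at -0.49 (SE 0.08). Other kinetochore and checkpoint genes had 8 of 30 called lower, led by Zw10 at -0.45 (SE 0.07), Cenpq at -0.42 (SE 0.06), Ska2 at -0.35 (SE 0.08) and Cenpe, the kinesin of kinetochores, at -0.33 (SE 0.06). Cohesin and other condensin genes had 2 of 15 called lower, near the share of all genes: Esco2 at -0.35 (SE 0.07) and Ncapg at -0.26 (SE 0.06). Of the 13 APC/C subunits 0 were called by limma, with a median of 0.13. At an unadjusted p under 0.05 there were 4 of 13, against 6248 of all 15588 genes in either direction. These were Anapc2, Anapc4, Anapc11 and Anapc13, with means of 0.19 to 0.28, and they were named after their values were seen. The methods' own test called 1, Anapc2.

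**Figure D5:**
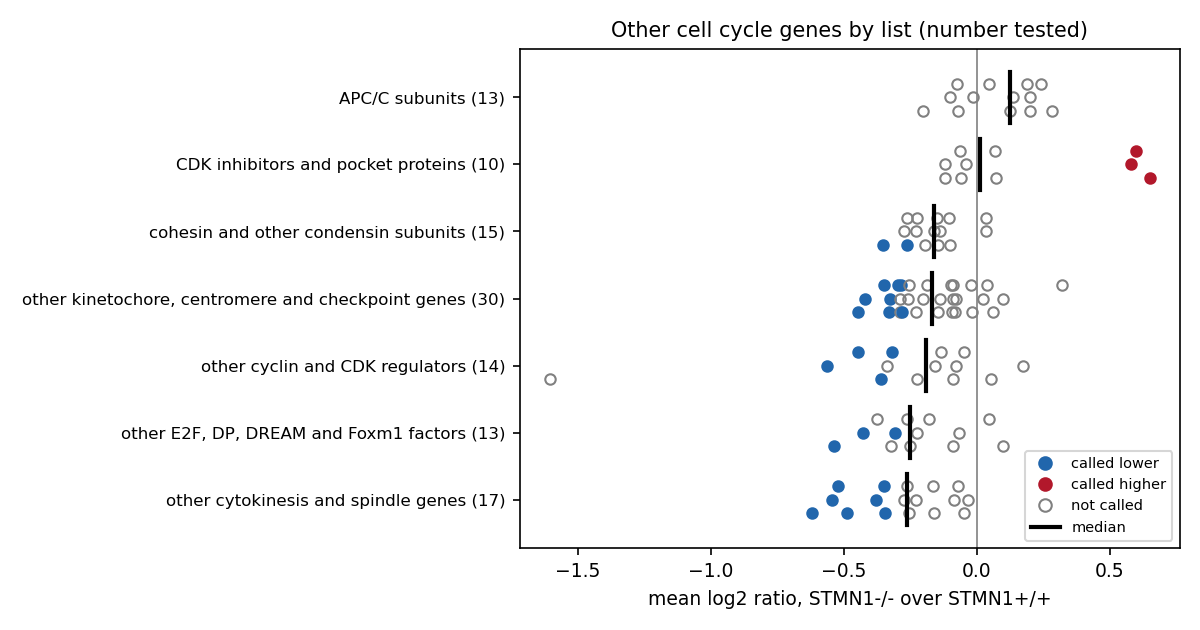
Mean log2 ratio of STMN1-/- over STMN1+/+ (horizontal axis) for 112 other cell cycle genes in 7 lists, with genes called lower in blue, called higher in red and not called open, and the median of each list as a bar. The 3 red points are Cdkn1c, Cdkn2a and Cdkn2b, and the APC/C subunits sit around a median of 0.13 with 0 called.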

How the data were processed

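Total RNA of STMN1-/- and STMN1+/+ MEFs was labelled and hybridised in pairs on 4 Agilent 2-color arrays. The deposited intensity of each spot is the processed signal of Agilent's Feature Extraction program, version 9.5.3.1 per the file headers, in which the authors had background removed and dyes normalized array by array. The deposited log10 ratio of Cy5 to Cy3 came from the same step. The authors' lists of selected probes, which hold log2 ratios of probes chosen on these samples, were not used here. All arrays record 1 scan time. Probe coordinates are of build mm7.

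Of 45018 spots, 1486 positive and 153 negative controls and 472 to 711 outlier spots per array were left out, and spots of a probe were averaged. Of 41174 probes, 13415 were well above background on no array in either channel and were dropped, and 27648 with at least 2 values were tested (26607 with 4). Arrays agreed at r of 0.689 and 0.703 within a dye orientation and 0.445 to 0.489 across it, over probes that share arrays. Log2 ratios were turned by the dye labels. The test was limma's (version 3.58.1, in R 4.3.3) of a mean ratio of 0. A gene is its brightest tested probe, named through RefSeq accessions, symbols and synonyms. The number of arrays limits the precision. The pipeline was tested on simulated data.

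The members and the lists were chosen with earlier results of these data known. Every member is named, with array values for those called, for the D and E cyclins, E2f1 to E2f3, Mki67 and the checkpoint and cytokinesis genes; of other lists, at most 4 called genes a direction. Alternatives covered background correction, the ratio column, centring, scaling, filters, outliers, dye, pairing of arrays, the methods' test, probe medians and each array left out.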

Additional observations from a re-analysis of the deposited data

Results flagged for a closer look

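In 3 of the 50 cell cycle and mitosis genes measured on all 4 arrays, 1 array lay far from the others by Dixon's criterion, which sets the gap to the nearest array against the whole range. Chance alone flags about 1 in 20 such groups. The log2 ratio of Ccnf on array 1 was -2.02, against -0.27 to -0.05 on the other arrays. Racgap1 on array 4 stood at -0.33, against -0.14 to -0.12. Bub1 on array 3 stood at -0.35, against -0.50 to -0.48, and its call did not depend on that array.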

How the results depend on the processing

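The direction of the cell cycle and mitosis genes as a group was kept under all 16 alternatives, with 6 to 29 genes called lower and at most 1 called higher. That 1 gene was E2f2, when arrays 1 and 4 and arrays 2 and 3 were averaged as pairs. The share called lower ran from 10.5% to 50.9% of the cell cycle genes, and from 5.47% to 20.3% of all genes. All alternatives reuse the same 4 arrays. The size of the calls depended on background handling and on the number of arrays. Each ratio already pairs the genotypes within an array, and the labels give no second group of arrays to block on.

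With normexp and loess, 804 genes were called higher and 852 lower of all genes, and 13 cell cycle genes were called lower. The calls of 9 genes were lost: Anln, Aurka, Ccne2, Cdc25a, Cdca8, Hmmr, Mad2l1, Tpx2 and Ttk. Cenpf was called lower instead. Median log2 ratios were then -0.18 over all 57 genes, -0.20 for G1/S cyclins and kinases, -0.21 for mitotic kinases, -0.11 for the spindle checkpoint and -0.36 for spindle proteins. The sign turned for Cdc25c (-0.025), Espl1 (0.033), Smc2 (0.0039), Smc4 (0.097) and E2f3 (-0.069), all uncalled. With no filter on dim probes, the counts were 1315 higher and 1184 lower of all genes, 11 lower among the cell cycle genes and 10 lower on the other lists. With probes well above background on all arrays, 5 genes of the other lists were higher and 36 of 111 lower (32.4%, against 15.5% of all genes). With outlier spots kept, Ndc80 (0.14) and E2f3 (-0.028) changed sign. The dye coefficient gave 3347 higher and 3167 lower of all genes, and 9 higher and 50 lower on the other lists.

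Either pairing of the arrays gave medians of -0.37 for G1/S cyclins and kinases and -0.10 for the S, G2 and M cyclins, -0.20 for E2f3 and, for the crosswise pairing, 1 cell cycle gene called higher. The methods' test gave 1249 genes lower, 17 cell cycle genes lower and 15 lower on the other lists. It gave no call for Stmn1 probe A_51_P495641 at its mean of -0.39. The calls of Aurka, Ect2, Hmmr, Mad2l1, Spc25, Tpx2 and Ttk were lost with it, and Mki67, Nuf2 and Plk4 were called lower instead. By the median over probes, mitotic kinases stood at -0.23, and Cdk2 (-0.12), Cdc25c (-0.11) and E2f3 (-0.13) changed sign.

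Leaving out 1 array gave 1003 to 1137 genes higher and 875 to 996 lower, 6 to 8 cell cycle genes lower and 3 to 7 genes lower on the other lists. Medians ranged from -0.21 to -0.20 over all 57 genes, -0.36 to -0.17 for G1/S genes, -0.29 to -0.21 for the checkpoint, -0.26 to -0.22 for mitotic kinases and -0.17 to -0.12 for the S, G2 and M cyclins. Stmn1 probe A_51_P495641 ranged from -0.44 to -0.35. Uncalled genes near 0 lay on either side of it: Cdk2 at -0.039 to 0.089, Cdk4 at -0.1 to 0.038, Cdc25b at -0.16 to 0.0077, Cdc25c at -0.061 to 0.093, Bub1b at -0.13 to 0.027, Fzr1 at -0.064 to 0.013, Pttg1 at -0.0089 to 0.058 and E2f1 at -0.058 to 0.093. The causes were not tested.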
